A study of Mus musculus with 36 samples.

Results

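Direct cardiac reprogramming turns fibroblasts of the heart towards a cardiomyocyte state by forced expression of a few transcription factors, and the regions described here are stretches of open chromatin that were as accessible in the first days of this process as in fibroblasts and less accessible in its last weeks. They were chosen from read counts of the assay for transposase-accessible chromatin (ATAC-seq). A region was a candidate when its counts summed to at least 90 over 18 libraries and it was not among the 5 highest regions, which left 184025 of 1393120 regions. Counts were divided by the library's sum over candidate regions and scaled to a common total (CPM, the usual depth-normalised read count), and the mean of log2(CPM + 0.5) was taken per group. A region was a member when the early mean (days 2 and 3) lay within 0.5 of the fibroblast mean and the late mean (days 14 and 21) lay at least 1 below both, that is at least 2-fold lower on this scale. The rule found 503 regions, 0.273% of the candidates. Day 7 took no part in it.

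The libraries came from neonatal hearts of CD-1 mice that carry an alpha-MHC-GFP reporter, whose green fluorescence marks an active cardiac myosin promoter. Cells that grew out of the explanted hearts and were Thy1+ and GFP-, a population that the labels call largely fibroblasts, were the start of every group. The fibroblast group received a dsRed retrovirus and no inhibitor and was harvested at day 7 as dsRed+ cells. The 5 other groups received retroviruses for Gata4, Mef2c and Tbx5 (GMT) with sb431542, which blocks TGF-beta signalling, and xav939, which blocks Wnt signalling, and were harvested as GFP+ cells at day 2, 3, 7, 14 or 21. Each group had 3 libraries, given as biological replicates. The factors, the inhibitors and the sorted colour differ together between fibroblasts and GMT cells and cannot be told apart, and the GFP+ gate selects the cells in which the reporter came on. Except at day 7, the day of harvest differs from that of the fibroblasts as well and cannot be told apart from these.

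Regulatory DNA is opened by transcription factors that displace nucleosomes, and a cell type is marked by the set of enhancers and promoters it keeps open. When cells change type, elements of the old state lose accessibility and elements of the new state gain it, and losses can come with the first binding of the delivered factors or only later. Gata4, Mef2c and Tbx5 act together in the developing heart, and inhibition of TGF-beta and Wnt signalling is known to raise the yield of induced cardiomyocyte-like cells. In a bulk sample, fewer cells with a region open and less opening in each cell cannot be told apart.

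Total counts per library ran from 2.29 to 23.2 M, and counts in candidate regions from 1.46 to 14.1 M, so that a single count was worth 0.0711 to 0.683 CPM. The highest region alone took 4.52 to 49.4% of a library's total. The table covers chromosomes 1, 10, 11, 12, 13, 14, 15, 16 and chromosome 17 up to 79.1 Mb, in build mm9. No mm9 sequence or gene annotation was used here, so regions are named by position, and the labelled cell types were not checked against marker genes. Fibroblast replicates 1 and 2 were the closest pair of libraries of any group (chi-square per degree of freedom 1.36), although they differed by more than sampling noise, so the fibroblast libraries may hold fewer independent samples than their number.

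Summed over the 503 regions, accessibility was 4030, 4064 and 4956 CPM in the fibroblast libraries 1 to 3. At day 2 it was 5080, 3872 and 4103 CPM, and at day 3 it was 4857, 3078 and 3039 CPM. The fibroblast and day 2 libraries thus overlapped, and day 3 replicates 2 and 3 lay below every fibroblast library. At day 7 the sums were 2276, 1907 and 2086 CPM, below every earlier library and every fibroblast library. At day 14 they were 1413, 1627 and 1520 CPM, and at day 21 they were 1524, 1769 and 1657 CPM. The days 14 and 21 libraries overlapped each other and all lay below the day 7 libraries. The highest sum of each of the fibroblast, day 2 and day 3 groups belonged to a library of low depth, namely fibroblast replicate 3 and the first replicates of days 2 and 3, with totals of 2.34, 2.29 and 2.95 M. The part of depth in these sums was not tested.

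**Figure D1:**
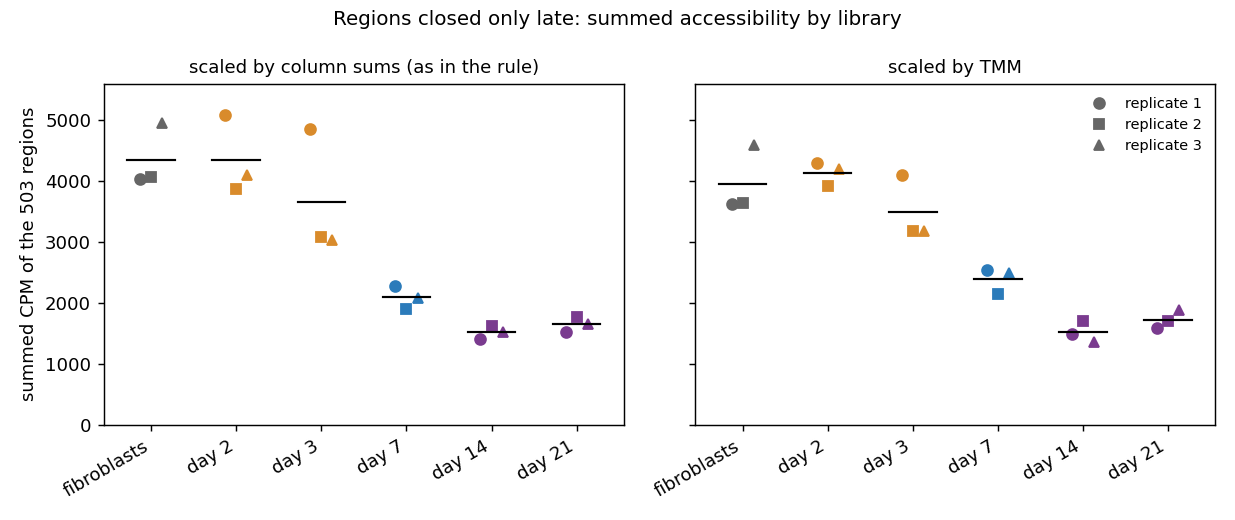
Summed accessibility (CPM, y axis) of the 503 regions in each of the 18 libraries, by group, with column-sum scaling on the left and trimmed-mean (TMM) scaling on the right; symbols are replicates and bars are group means. With column sums the day 7 libraries sit between 1907 and 2276 CPM, below all fibroblast, day 2 and day 3 libraries and above all day 14 and day 21 libraries.

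The scaling matters for the size of the step between day 3 and day 7. Under TMM scaling (trimmed mean of M-values, which sets library sizes so that most regions do not change), the sums were 3624, 3639 and 4589 CPM in fibroblasts. At day 2 they were 4302, 3918 and 4197 CPM, at day 3 4105, 3185 and 3186 CPM, and at day 7 2532, 2140 and 2483 CPM. They were 1496, 1698 and 1353 CPM at day 14 and 1591, 1706 and 1879 CPM at day 21. The order of the groups was kept and the day 7 libraries still did not overlap any other group. TMM factors were 1.08 to 1.12 in fibroblasts, 0.840 to 0.899 at day 7, and 1.18 in the first replicates of days 2 and 3.

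The values that chose the members are a description. The late mean was below both others in every member, with a median difference of -1.29 from the fibroblast mean and -1.16 from the early mean on the log2(CPM + 0.5) scale. The medians over all candidate regions were -0.02 and 0.01. The quartiles of the members ran from -1.48 to -1.16 for late minus fibroblast and from -1.29 to -1.07 for late minus early, so most lay not far past the threshold. Both differences reached -1.5 in 27 members and -2 in 2 members. In 383 of the 503 the late mean was still at or above 1 CPM, so "closed" stands here for reduced and not for absent accessibility. Early minus fibroblast had a median of -0.14, and 365 members were on its negative side.

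The threshold separated regions with nearly equal values. Just inside it lay chr1:87849872-87851129, with a late minus fibroblast difference of -1.002, and chr10:16758381-16759121, also at -1.002. Just outside lay chr13:17853482-17855033 and chr11:106421156-106421685, both at -0.999. Without the condition on the early level, 878 regions met both late cuts. Of these, 366 were already more than 0.5 lower than fibroblasts at days 2 and 3, and 9 were more than 0.5 higher. A rule for regions that were at least 2-fold lower both early and late, with early and late means within 0.5 of each other, found 9813 regions.

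The contrasts of the rule itself, tested only to set a scale, called 411 members lower at days 14 and 21 than in fibroblasts, beside 9.62% of all candidates, and 416 lower than at days 2 and 3, beside 2.68%. They called 0 members higher in either, beside 12.8 and 1.79%. Here and below, a region was called when the Benjamini-Hochberg adjusted p of edgeR's quasi-likelihood test was under 0.05 over all 184025 candidates. Nothing is read from these 2 counts, because the rule used the same differences. The first was 267 without fibroblast replicate 1. In 224 members all 6 late libraries lay below all 9 libraries of fibroblasts and days 2 and 3, beside 0.571% of candidates.

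Day 7 shows where these regions stood between the early and the late state. The share of the early-to-late difference that was present at day 7 had a median of 0.706, with quartiles of 0.549 and 0.878. Day 7 was nearer to the late than to the early level in 410 members and nearer to the early level in 93. It was at or below the late level in 58 members, and at or above the early level in 3. In 17 members less than 25% of the difference was present. The day 7 mean lay between the late mean and the lower of the other means in 442 members (87.9%), beside 8.75% of candidates, from which nothing is read, since the rule sets the late mean well below the others in every member and not in other candidates. The early and late levels at both ends of this scale chose the members, so the shares are a description of where day 7 lay. The day 7 libraries 1 to 3, taken alone, gave median shares of 0.557, 0.773 and 0.737, and TMM scaling gave 0.571.

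**Figure D2:**
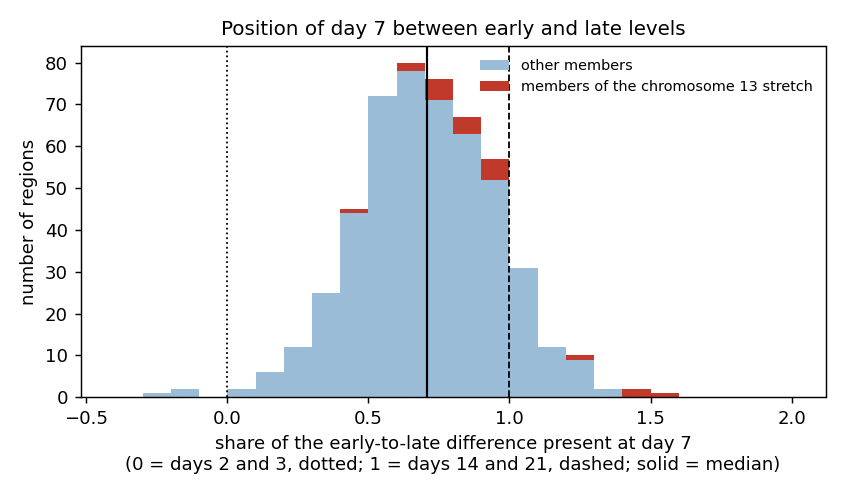
Number of regions (y axis) by the share of the early-to-late difference that was present at day 7 (x axis; 0 is the mean of days 2 and 3, dotted, and 1 the mean of days 14 and 21, dashed), with members of the chromosome 13 stretch in red and the median of 0.706 as a solid line. Most regions lie between 0.5 and 1, and 58 lie at or beyond 1.

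Day 7 against fibroblasts was a comparison of equal days after infection. All 3 day 7 libraries lay below all 3 fibroblast libraries in 348 members (69.2%), beside 23.9% of candidates. The test called 126 members lower at day 7, which is 25.0% of them beside 8.85% of all candidates, and 0 members higher, beside 13.3%. The median fitted log2 fold change was -0.75 in members and -0.003 over all candidates. The fibroblast libraries helped to choose the members, which favours lower calls at every later time, so these counts describe the members and are no independent support. The count fell to 76 without fibroblast replicate 1, 82 when fibroblast replicate 3 was left out, and to 82 and 80 when day 7 replicate 2 or 3 was left out. The lower calls over all candidates fell as well, from 16278 to 9658, 14061, 12916 and 12108 in the same order. With library sizes from column sums 259 members were called lower. That scaling also moved the median of all candidates to -0.33 and the split of all calls from 16278 lower and 24468 higher to 27801 lower and 16291 higher.

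Fewer members passed the test between day 7 and the days before it. All 3 day 7 libraries lay below all 6 libraries of days 2 and 3 in 215 members (42.7%), beside 4.28% of candidates. The test called 21 members lower, beside 0.0522% of candidates (96 regions in all), and 0 higher, beside 0.181%. At an unadjusted p under 0.05 there were 238 members (47.3%), all lower, beside 10.7% of candidates in either direction. The median fitted log2 fold change was -0.67, against 0.01 for all candidates. As the early libraries chose the members too, the same limit holds. Leaving out day 2 replicate 3 brought the count of members called to 9, leaving out day 3 replicate 2 to 10, and leaving out 1 of the day 7 libraries to between 4 (replicate 3) and 9 (replicate 1), with 5 for replicate 2. The lower calls over all candidates fell as well, from 96 to 41, 65, 22, 49 and 23 in the same order. DESeq2 gave an adjusted p to 14 members only and called 5.

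From day 7 to days 14 and 21 the test called 0 members, beside 0.012% of candidates. An unadjusted p under 0.05 was reached by 175 members (34.8%), 174 of them lower, beside 6.96% of candidates in either direction. DESeq2, which gave 118 members an adjusted p, also called 0. The median fitted log2 fold change was -0.54, against 0.002 over all candidates, and the late libraries, which chose the members, again stand on one side. All 6 late libraries lay below all 3 day 7 libraries in 39 members (7.75%), beside 1.27% of candidates. The call depended on single libraries: leaving out day 3 replicate 1 let 4 members pass, leaving out day 7 replicate 2 let 1 pass, and 15 passed when the first replicates of both days 2 and 3 were left out. Over all candidates the lower calls rose as well, from 22 as reported to 113, 68 and 457 in the same order.

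The rule used the mean of each pair of days and not the difference within it. Its influence on that difference was not tested. Over all candidates the median SD between libraries (log2(CPM + 0.5)) was 0.51 at day 2 against 0.45 at day 3 and 0.44 at day 14 against 0.34 at day 21. In the members it was 0.39 at day 2 against 0.46 at day 3 and 0.49 at day 14 against 0.38 at day 21. A choice by means can act unequally on days of unequal spread, so the medians below are a description. The median fitted log2 fold change of day 3 against day 2 was -0.27 in members and 0.02 over all candidates. The test of day 3 against day 2 called 0 members, beside 0.0% of candidates. At an unadjusted p under 0.05 there were 43 members (8.55%), all of them lower at day 3, beside 3.60% of candidates in either direction. DESeq2 called 0 members. Day 21 against day 14 also had 0 calls by either tool, beside 0.0% of candidates. Its median was 0.20 in members and -0.002 over all candidates. An unadjusted p under 0.05 was reached by 42 members (8.35%), 5 of them lower at day 21, beside 3.34% of candidates in either direction. No member passed the test within the early pair of days or within the late pair.

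Regions opened only late, found by the mirror of the rule, numbered 606. Their median share of the early-to-late difference at day 7 was 0.605 with column sums. On that scaling the median day 7 minus early difference of all candidates was -0.14, which acts in opposite ways on losses and gains. TMM scaling brought the median share of the members below 0.605, and no TMM value was taken for the regions opened only late. Whether the classes differ in timing was not tested.

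Losses were ranked by the late mean minus the average of the early and fibroblast means, among members with at least 2 CPM in fibroblasts and early. The region with the largest loss by this measure was chr13:21998660-22000170, which is 1510 bases wide and had 16.3, 23.2 and 23.9 CPM in fibroblasts. It had 27.7, 18.3 and 16.4 CPM at day 2 and 15.7, 8.58 and 9.45 CPM at day 3. At day 7 it had 3.10, 5.51 and 3.83 CPM, at day 14 it had 2.56, 1.88 and 1.85 CPM, and at day 21 it had 2.68, 4.85 and 2.91 CPM. All 9 libraries from day 7 on lay below all 9 libraries of fibroblasts and days 2 and 3. Its log2 fold change at day 7 was -2.01 against fibroblasts (SE 0.31, adjusted p = 2.56e-07) and -1.61 against days 2 and 3 (SE 0.27, adjusted p = 0.000689) in edgeR's test. Both calls held under every alternative that gave an adjusted p (of at most 6.06e-05 and 0.0343), and DESeq2 gave none for the second.

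The second largest loss by this measure was at chr10:92805468-92806992. By late minus early alone its loss was the larger one, at -2.45 against -2.28 for the region ranked first. The chromosome 10 region had 7.10, 10.9 and 15.7 CPM in fibroblasts and 16.2, 12.6 and 15.3 CPM at day 2. It had 10.1, 5.41 and 10.4 CPM at day 3 and 4.06, 3.12 and 3.99 CPM at day 7. At day 14 it had 2.01, 1.88 and 0.463 CPM, and at day 21 it had 2.49, 2.57 and 1.23 CPM. The groups stepped down without overlap from the early days to day 7 and from day 7 to the late days. Day 7 against days 2 and 3 had a log2 fold change of -1.35 (SE 0.29, adjusted p = 0.0166) and against fibroblasts one of -1.14 (SE 0.35, adjusted p = 0.0111), while the late step of -1.20 (SE 0.33) had an adjusted p of 0.236. The call against fibroblasts was lost without fibroblast replicate 3 (adjusted p = 0.0962), and that against days 2 and 3 without day 2 replicate 3, day 3 replicate 3 or any day 7 library (adjusted p of up to 0.176).

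Other large losses had similar courses at different levels. The region chr12:81258438-81261645, 3207 bases wide, had 41.9, 48.1 and 64.9 CPM in fibroblasts and 37.9, 33.5 and 40.7 CPM at day 2. It had 32.4, 34.3 and 39.7 CPM at day 3, 23.2, 11.8 and 23.5 CPM at day 7, 5.79, 17.5 and 11.6 CPM at day 14, and 8.04, 12.3 and 15.4 CPM at day 21. Day 7 lay below all earlier libraries, and 1 day 14 and both higher day 21 libraries reached into the day 7 range. At day 7 it fell by 1.05 on the log2 scale against fibroblasts (SE 0.31, adjusted p = 0.00965, edgeR), a call lost without fibroblast replicate 3 (0.0722) or day 7 replicate 2 (0.115).

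At chr14:33117458-33119229 the fibroblast libraries had 17.7, 10.1 and 15.7 CPM and the day 2 libraries 13.5, 10.0 and 13.6 CPM. Day 3 had 15.1, 12.1 and 8.74 CPM, day 7 had 7.90, 3.86 and 4.29 CPM, day 14 had 2.34, 3.23 and 1.39 CPM, and day 21 had 4.40, 3.42 and 4.44 CPM. Day 7 was below every earlier library, and its lowest libraries lay within the day 21 range. The log2 fold change against fibroblasts was -1.09 (SE 0.31, adjusted p = 0.0055, edgeR), and it missed the threshold without fibroblast replicate 1 (0.115).

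The 4 remaining regions of the 8 with the largest losses were chr13:21509110-21509979, chr17:29244591-29245838, chr1:181915839-181917305 and chr1:142011585-142013020. At day 7 against fibroblasts only chr1:142011585-142013020 was called, with a log2 fold change of -1.28 (SE 0.37, adjusted p = 0.00665, edgeR), and it was not called without fibroblast replicate 3 (0.0835). The early level of the region on chromosome 17 rested in part on the first replicates of days 2 and 3. Day 2 replicate 1 had 35.9 CPM where replicates 2 and 3 had 11.3 and 7.49 CPM. Day 3 replicate 1 had 21.8 CPM where replicates 2 and 3 had 4.66 and 10.6 CPM. At chr13:21509110-21509979 day 3 replicate 1 had 28.5 CPM against 8.95 and 11.4 CPM in replicates 2 and 3. The other region on chromosome 1, from 181915839, had 16.4 CPM in fibroblast replicate 3 against 5.20 and 6.12 CPM in replicates 1 and 2. In these regions the high libraries were among those with low depth.

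**Figure D3:**
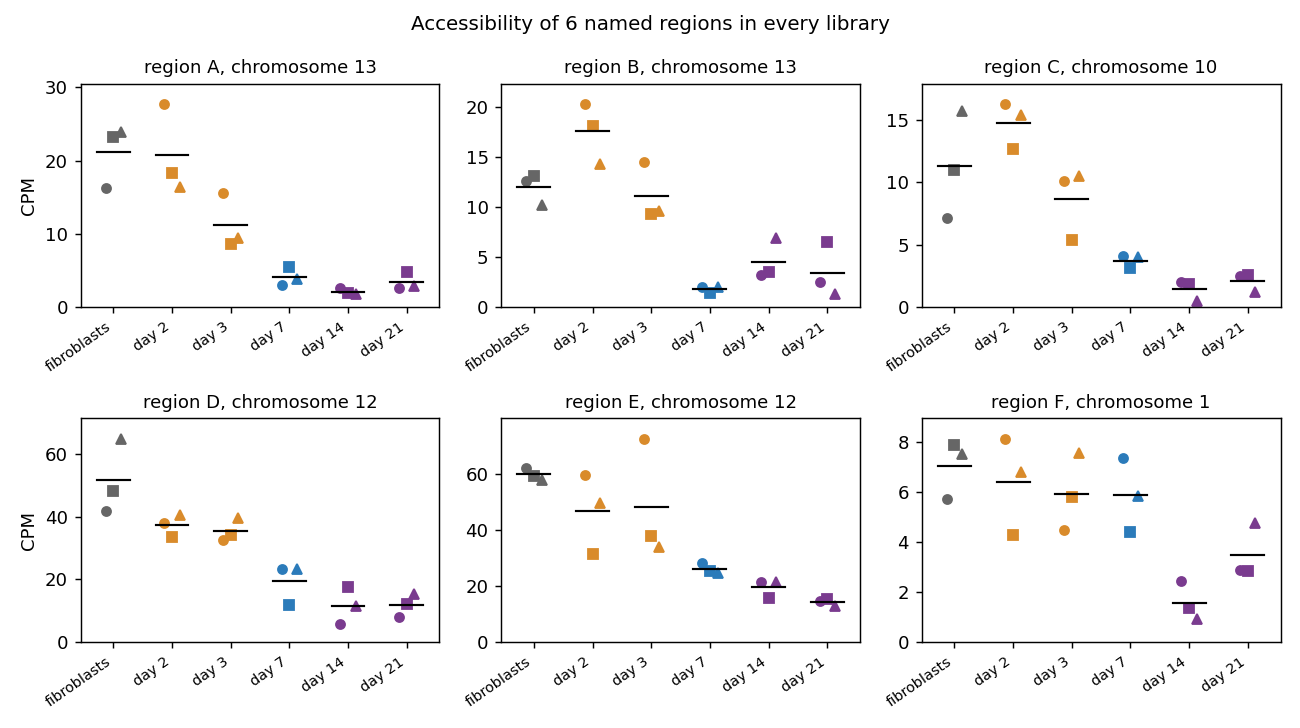
Accessibility (CPM, y axis) of 6 regions in every library by group (x axis), with group means as bars and replicates as circle (1), square (2) and triangle (3): A from 21998660 and B from 22028677 on chromosome 13, C from 92805468 on chromosome 10, D from 81258438 and E from 89606607 on chromosome 12, and F from 64334917 on chromosome 1. In A to E the day 7 libraries lie below all fibroblast, day 2 and day 3 libraries, and in F they lie among them.

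The members with the highest early and fibroblast levels were 4 strong regions. At chr12:89606607-89607947 the fibroblast libraries had 62.4, 59.5 and 58.1 CPM and the day 2 libraries 59.6, 31.6 and 49.6 CPM. It had 72.7, 38.0 and 34.0 CPM at day 3, 28.3, 25.5 and 24.5 CPM at day 7, 21.5, 15.9 and 21.3 CPM at day 14, and 14.6, 15.4 and 12.7 CPM at day 21. The day 7, day 14 and day 21 libraries formed 3 separate steps below all earlier ones. The log2 fold change of day 7 against fibroblasts was -0.87 (SE 0.29, adjusted p = 0.022, edgeR), which was not called without fibroblast replicate 1 or any 1 day 7 library (0.0541 to 0.0771).

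The region chr13:73566862-73568232 was the slowest of the 4. It had 52.3, 43.3 and 55.3 CPM in fibroblasts, 44.0, 30.2 and 48.5 CPM at day 2, and 49.7, 36.9 and 38.7 CPM at day 3. It had 32.0, 22.2 and 31.7 CPM at day 7, 20.4, 19.1 and 25.5 CPM at day 14, and 21.3, 17.7 and 17.5 CPM at day 21. The day 7 libraries reached into the day 2 range, and the difference from fibroblasts of -0.47 (SE 0.29) was not called (adjusted p = 0.246, edgeR). The 2 other strong regions lie on chromosome 13 between 21 and 24 Mb.

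The smallest p-values for day 7 against fibroblasts belonged to chr13:21998660-22000170, chr13:22028677-22029496, chr13:22063436-22064063 and chr15:7812413-7814355. The last was the one outside chromosome 13. It had 11.6, 14.4 and 29.4 CPM in fibroblasts, 18.3, 14.6 and 12.1 CPM at day 2, 13.4, 11.9 and 10.5 CPM at day 3 and 5.02, 4.59 and 5.21 CPM at day 7. Its late libraries had 3.57, 5.38 and 6.48 CPM at day 14 and 3.26, 4.56 and 3.98 CPM at day 21. It was at its late level by day 7, with a share of 0.904 of the early-to-late difference. The log2 fold change against fibroblasts was -1.47 (SE 0.31, adjusted p = 0.000156, edgeR) and held under every alternative (adjusted p of at most 0.0154). That of -1.18 against days 2 and 3 (SE 0.27, adjusted p = 0.0289) was not called without day 2 replicate 2 or 3, day 3 replicate 2 or any day 7 library (adjusted p of up to 0.203).

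Opposite to these stood members whose mean at day 7 was still near the early level. The region chr1:64334917-64336532 had 5.72, 7.87 and 7.52 CPM in fibroblasts, 8.12, 4.26 and 6.78 CPM at day 2 and 4.47, 5.78 and 7.53 CPM at day 3. At day 7 it had 7.37, 4.41 and 5.82 CPM, inside the early range. At day 14 it had 2.45, 1.35 and 0.926 CPM and at day 21 it had 2.87, 2.85 and 4.75 CPM, and only the highest day 21 library overlapped day 7. The late step from day 7 was -1.30 on the log2 scale (SE 0.30, adjusted p = 0.113, edgeR) and was called without day 3 replicate 1 (0.039).

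At chr10:59731744-59733235 the group means took a similar course, but the day 7 libraries disagreed. The region had 12.5, 12.2 and 12.3 CPM in fibroblasts and 11.5, 10.6 and 12.8 CPM at day 2. At day 3 it had 10.1, 9.69 and 9.95 CPM. It had 13, 7.90 and 7.97 CPM at day 7, 4.12, 7.00 and 4.63 CPM at day 14, and 4.02, 3.42 and 6.43 CPM at day 21. Day 7 replicate 1 lay above every earlier library and replicates 2 and 3 lay below every one, so the day 7 mean rested on replicate 1. Each day 7 library lay above all late ones. The late step was -1.08 (SE 0.25, adjusted p = 0.121, edgeR) and passed without day 3 replicate 1 (0.0463).

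The smallest p for the late step belonged to chr1:88237321-88238465, at -1.41 (SE 0.32, adjusted p = 0.0993, edgeR). Its day 7 libraries were 3.84, 2.57 and 9.66 CPM, so replicate 3 alone was above every fibroblast library, which had 8.14, 7.87 and 8.88 CPM. The step was called without day 7 replicate 2 (0.0127) or without day 3 replicate 1 (0.0332). The fourth region by this measure, chr10:59217603-59219901, had 5.98, 4.41 and 4.14 CPM at day 7, and its late libraries had 2.45, 1.88 and 1.85 CPM at day 14 and 2.87, 1.14 and 2.30 CPM at day 21. Its late step was -1.28 (SE 0.31, adjusted p = 0.145, edgeR).

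The members were spread over all 9 chromosomes of the table, at 0.208 to 0.318% of the candidates of each, and they were dense in one place. Between 21 and 24 Mb of chromosome 13, a stretch chosen after its values were seen, 21 of 474 candidates were members (4.43%), against 40 members on the rest of the chromosome (0.210% of its candidates). Textbook maps of the mouse genome place the largest cluster of replication-dependent histone genes, together with many tRNA genes, in this part of chromosome 13. Those histone genes are switched on as cells copy their DNA, and supply the histones that package it. Which of the members lie at such genes was not tested, since no mm9 annotation was used.

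In this stretch the day 7 libraries lay near the late ones. Summed over its 21 members, accessibility was 364, 367 and 370 CPM in fibroblasts, 556, 401 and 398 CPM at day 2 and 384, 272 and 247 CPM at day 3. It was 136, 151 and 134 CPM at day 7, 116, 126 and 157 CPM at day 14 and 95.0, 172 and 99.7 CPM at day 21. All day 2 libraries lay above all fibroblast libraries, all later GMT libraries from day 7 lay below all earlier libraries, and days 7, 14 and 21 overlapped. The median share of the early-to-late difference present at day 7 was 0.852 in the stretch and 0.695 in the other members. Of its 21 members, 14 were called lower at day 7 than in fibroblasts, beside 8.85% of all candidates. Against days 2 and 3, 10 were called lower, beside 0.0522% of all candidates, so that the stretch held 10 of the 21 members called there. As the stretch was picked with its values in view, these counts are a description. Over all candidates, members or not, 15 of the 96 regions called lower at day 7 than at days 2 and 3 were in this stretch. The candidates of the stretch that were no members had a median late minus early difference of -0.05.

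**Figure D4:**
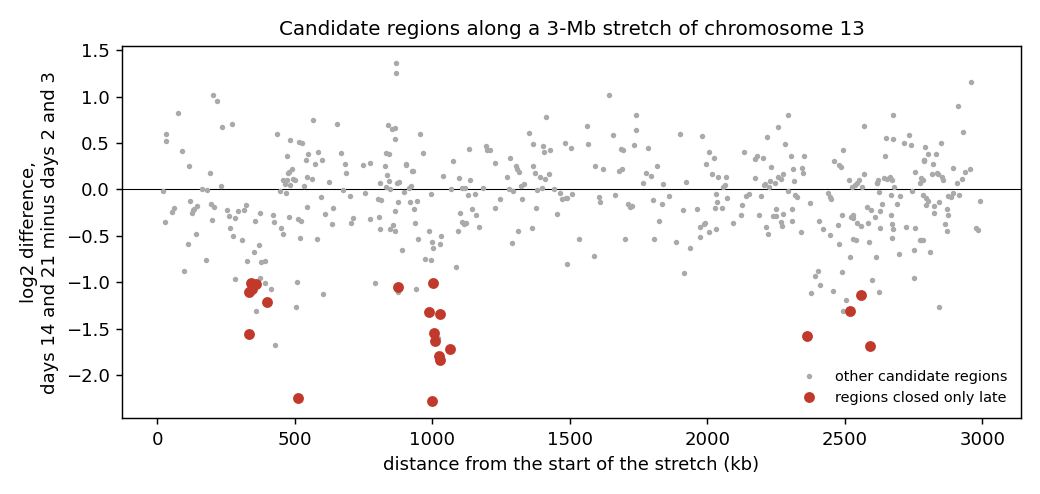
Late minus early difference (mean log2(CPM + 0.5) of days 14 and 21 minus that of days 2 and 3, y axis) of the 474 candidate regions between 21 and 24 Mb of chromosome 13, by distance from the start of the stretch (kb, x axis), with members in red. The 21 members fall in groups, and most other candidates lie around 0.

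The longest run of members anywhere, with gaps of at most 20 kb, lay in this stretch at chr13:21988046-22029496. It holds 8 members among 15 candidates within 41.45 kb, and contains the region of the largest loss. Of the 8, 6 were called lower at day 7 than in fibroblasts and 5 lower than at days 2 and 3, beside 8.85 and 0.0522% of all candidates. At its far end, chr13:22028677-22029496 had 12.6, 13.1 and 10.2 CPM in fibroblasts, 20.3, 18.1 and 14.3 CPM at day 2 and 14.5, 9.32 and 9.60 CPM at day 3. At day 7 it had 2.03, 1.47 and 1.99 CPM, the lowest of any time but for 1 day 21 library, and then 3.23, 3.50 and 6.94 CPM at day 14 and 2.49, 6.56 and 1.30 CPM at day 21. All day 2 libraries exceeded all fibroblast libraries, and the day 14 libraries all exceeded day 7. Its log2 fold change at day 7 was -2.37 against fibroblasts (SE 0.37, adjusted p = 3.32e-07) and -2.63 against days 2 and 3 (SE 0.32, adjusted p = 1.69e-07), the smallest adjusted p of any member in the latter test, and its late step of 0.73 (SE 0.35, adjusted p = 0.69) was not called by edgeR.

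The strongest region of the run was chr13:22008739-22012376, 3637 bases wide, with 48.7, 45.9 and 42.4 CPM in fibroblasts and 79.9, 59.1 and 44.6 CPM at day 2. It had 41.4, 34.5 and 31.1 CPM at day 3, 15.1, 19.3 and 19.0 CPM at day 7, 12.6, 15.9 and 19.0 CPM at day 14, and 10.5, 18.8 and 11.9 CPM at day 21. The last 3 groups overlapped and lay below all others. The log2 fold change of day 7 against days 2 and 3 was -1.13 (SE 0.26, adjusted p = 0.0275, edgeR), a call lost without day 3 replicate 2 or any day 7 library (up to 0.186). Against fibroblasts it was -1.03 (SE 0.29, adjusted p = 0.00522, edgeR), a call lost without day 7 replicate 1 (0.052).

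Close by, at chr13:22063436-22064063, the fibroblast libraries had 4.68, 6.56 and 7.52 CPM, the day 2 libraries 14.9, 5.50 and 7.85 CPM and the day 3 libraries 6.71, 5.22 and 2.42 CPM. Day 7 had 0.961, 1.47 and 0.613 CPM, day 14 had 1.23, 1.62 and 1.39 CPM, and day 21 had 1.15, 2.57 and 1.61 CPM. Only the highest day 21 library reached the lowest early one. The log2 fold changes of -2.22 against fibroblasts (SE 0.46, adjusted p = 0.000114) and -2.33 against days 2 and 3 (SE 0.40, adjusted p = 0.000714) held in edgeR's test and under every alternative that gave an adjusted p (of at most 0.00182 and 0.028), and DESeq2 gave none for the second.

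The second longest run, chr13:21331977-21357401, holds 5 members among 7 candidates. Of the 5, 4 were called lower at day 7 than in fibroblasts and 2 lower than at days 2 and 3, beside the same shares of all candidates. Its region chr13:21339715-21342473 had 10.6, 17.1 and 8.20 CPM in fibroblasts, 14.9, 11.4 and 11.1 CPM at day 2, and 15.7, 7.83 and 6.82 CPM at day 3. It had 3.10, 4.23 and 2.91 CPM at day 7, and 5.35, 4.31 and 8.33 CPM at day 14 and 3.83, 7.41 and 3.22 CPM at day 21. Day 7 lay below every earlier library and every day 14 library. Its log2 fold change at day 7 against fibroblasts was -1.5 (SE 0.33, adjusted p = 0.000352, edgeR) and held under every alternative (at most 0.0159). Further along the stretch, the second highest member of all, chr13:23360163-23363118, had 49.2, 42.9 and 37.6 CPM in fibroblasts, 69.7, 50.9 and 54.9 CPM at day 2, 54.8, 39.9 and 34.1 CPM at day 3 and 16.1, 17.3 and 18.9 CPM at day 7. Its late libraries ran from 10.5 to 24.5 CPM, around the day 7 values. The log2 fold change of -1.26 against days 2 and 3 (SE 0.26, adjusted p = 0.00989, edgeR) was not called without any 1 day 7 library (up to 0.136).

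The third run, chr1:73923498-73956511, shows neighbours with different courses. Its first region, chr1:73923498-73926068, was at 2.24, 2.20 and 2.61 CPM at day 7, below the 5.72, 6.56 and 6.15 CPM of fibroblasts. The middle one, chr1:73938491-73943238, was lower at day 7 than in fibroblasts with a log2 fold change of -1.0 (SE 0.32, adjusted p = 0.0167, edgeR), a call lost without fibroblast replicate 1 or 2 or day 7 replicate 2 or 3 (0.068 to 0.104). The last one, chr1:73952168-73956511, had 37.9, 47.7 and 36.9 CPM in fibroblasts and still 51.7, 30.3 and 28.8 CPM at day 7, with 15.5, 28.8 and 11.1 CPM at day 14 and 19.3, 15.7 and 23.0 CPM at day 21. Its day 7 libraries disagreed, with replicate 1 above and replicates 2 and 3 below every fibroblast library. Its late step of -1.09 (SE 0.26, adjusted p = 0.147, edgeR) was called only without day 3 replicate 1 (0.0249) or both first replicates of days 2 and 3 (0.0018).

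Most members stood alone. Runs with gaps of at most 20 kb took in 56 of the 503 members, in 22 runs, and in 23 members the next candidate on either side was also a member. The next candidate on either side of a member, where it was no member and lay within 20 kb, was also looked at (949 candidates). These had a median late minus early difference of -0.14, against 0.01 for all candidates, and 7.17% of them were called lower late than early, against 2.68%. Candidates further off within 20 kb are not included. No member lay in the parts of chromosome 13 (83.6 to 83.9 Mb, 58 candidates) and chromosome 14 (63.7 to 63.95 Mb, 90 candidates) that hold the Mef2c and Gata4 genes by textbook position, which was not checked with an annotation. Sequences of both genes were also delivered by retrovirus.

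In width the members were like other candidates, with a median of 1357 bases against 1346, and 5.17% were at least 3 kb wide against 4.72%. They had more counts, with a median of 353 over all libraries against 187, and a median fibroblast level of 6.16 CPM against 2.20 CPM. Because a fixed pseudocount shrinks the differences of low regions, the rule itself favours regions with high values before the loss. Across 4 equal groups of members by that level, the median share present at day 7 was 0.693, 0.714, 0.746 and 0.687 from lowest to highest, with no steady order.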

How the data were processed

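ATAC-seq of 18 mouse libraries was used as the deposited table of counts per region, which the authors left unnormalized. Per the submitters' processing notes, Bowtie2, Picard, MACS2 and edgeR were used with build mm9. For their versions, the read shift, duplicate handling and peak calling, nothing is given in the sources used here. The table holds 1393120 usable regions and 1 incomplete line, which was dropped. The 18 other samples of the labels were not analysed here.

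The members and lists were chosen with earlier results of these data known. Membership used CPM on column sums of the candidate regions and a pseudocount of 0.5. Tests used edgeR 4.0.16 (R 4.3.3) on the counts of all 184025 candidates: TMM, 1 mean per group over 18 libraries, robust glmQLFit (12 residual degrees of freedom, common biological coefficient of variation 23.9%) and two-sided glmQLFTest with Benjamini-Hochberg adjustment. Fold changes are edgeR's fitted values. The test was checked on simulated counts. p-values measure the spread between libraries given as biological replicates.

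Regions were named by rule: the 8 largest losses with at least 2 CPM in fibroblasts and early, the 4 highest levels, the 4 smallest p for day 7 against fibroblasts and for late against day 7, the 2 nearest on each side of the threshold, and the 3 longest runs. The chromosome 13 stretch was picked with its values in view. The planned motif and gene lists were not run, as no mm9 sequence or annotation was used. Alternatives were DESeq2 1.42.0, other scalings, filters, pseudocounts and thresholds, a replicate block, and leaving out libraries. Which of both sequencing cores read a library is not in the labels, so a core effect was not tested.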

Additional observations from a re-analysis of the deposited data

How the results depend on the processing

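Which regions are members depends strongly on the settings of the rule. TMM scaling gave 306 members (283 shared with the reported ones), a pseudocount of 2 gave 70 (68 shared), one of 0.1 gave 1478 (469 shared), thresholds of -1.5 gave 27, and a minimum summed count of 180 gave 409. Without the first replicates of days 2 and 3 there were 321 (242 shared), and leaving out 1 library gave 350 to 662. The chromosome 13 stretch then held 12 members with a pseudocount of 2, 8 with thresholds of -1.5, 13 without those first replicates, and 14 to 23 with 1 library left out. The median day 7 difference from fibroblasts, -0.98 as reported, was -0.70 with TMM, -0.71 with a pseudocount of 2 and -1.05 to -0.96 with a day 7 library left out. The median share present at day 7 was 0.571 with TMM and 0.665 to 0.783 with a day 7 library left out. Runs with gaps of at most 5 kb held 29 members, and those of at most 50 kb held 82.

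The count of members lower at day 7 than in fibroblasts was 259 with column sums and 76 to 143 with 1 library left out. That against days 2 and 3 was 5 with DESeq2, which tested few members, 41 with column sums, 33 without the first replicates of days 2 and 3, and 4 to 29 with 1 library left out. The late step had 0 to 4 calls with 1 library left out. It had 15 without the first replicates of days 2 and 3, where 457 of all candidates were called lower. Late against fibroblasts gave 267 to 428 calls and late against early 331 to 422 with 1 library left out. The cause was not tested. Column sums moved the median of all candidates to -0.33 for day 7 against fibroblasts, -0.19 for day 7 against days 2 and 3, 0.14 for late against day 7 and -0.15 for late against fibroblasts.

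Of the alternatives to the tests of named regions, none changed a sign. Calls were lost in 44 for day 7 against fibroblasts and 34 for day 7 against days 2 and 3, and gained in 22 and 13 and, for the late step, in 11. The deviations of same-numbered libraries of different groups had correlations of -0.131 to 0.273 (median 0.004, 2 of 45 over 0.1). Both over 0.1 lay between days 2 and 3, at 0.273 for the first replicates and 0.176 for the second. Day 2 replicate 2 also had 0.186 with day 3 replicate 3, and day 2 replicate 1 had -0.1965 and -0.1979 with day 3 replicates 2 and 3. The libraries of days 2 and 3 thus shared structure and may hold fewer independent samples than their number. Outside these days no same-numbered pair was over 0.1. Day 14 replicate 2 had 0.155 with day 21 replicate 3 and -0.120 with day 21 replicate 2. Day 14 replicate 3 had 0.104 with day 21 replicate 2 and -0.131 with day 21 replicate 3. The pairs of these days that held a first replicate ran from -0.0098 to 0.0053. The late libraries may thus share some structure as well. With the replicate number as a block, 126 members were called against fibroblasts and 19 against days 2 and 3. In day 14 replicate 3, 83 members had no count, while the 3 libraries with fewer candidate counts, all of them fibroblast or early, had 0 such members. The parts of depth and of the low late level that the rule chose were not tested.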
